A study of Mus musculus with 8 samples.

Results

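The 10 genes described here encode the core of the NF-kB system. They are the subunits Nfkb1, Nfkb2, Rel, Rela and Relb, and the inhibitors Nfkbia, Nfkbib, Nfkbie, Nfkbiz and Tnfaip3. Members were chosen by symbol, and they are 10 of the 54532 genes counted in primary mouse islets, the endocrine tissue of the pancreas. The islets came from wild-type and Sting-/- mice of 25 to 30 weeks of age, were cultured overnight, and received DMXAA at 50 µg/mL or its solvent DMSO for 3 h. DMXAA is a small molecule that activates mouse STING, the adaptor through which cells respond to cytosolic DNA. The 4 groups were wild-type DMSO, wild-type DMXAA, Sting-/- DMSO and Sting-/- DMXAA, with 2 libraries in each (wild-type is written WT below). The labels do not describe the Sting-/- allele, the diet, or whether both libraries of one group derive from different mice. The p-values therefore measure only how far these libraries spread, and that spread may be technical.

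NF-kB is a family of dimeric transcription factors that resting cells hold in the cytoplasm with inhibitory IkB proteins. Kinases that act below cytokine receptors, Toll-like receptors and STING mark the IkB proteins for destruction, and the freed dimers enter the nucleus. Among the genes they switch on are those of their own inhibitors, Nfkbia and Tnfaip3, so that a rise of these transcripts is a widely used readout of NF-kB activity. In islets the pathway is best known from the response of beta cells and resident macrophages to inflammatory cytokines.

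Total counts were between 15624020 and 19601850 per library. A member had between 94 counts (Nfkbie) and 3044 counts (Nfkbia) in a library, so counting error alone was at most 10.3% of any value. Sting1, the targeted gene, had 39 and 41 counts in WT DMSO, 23 and 39 in WT DMXAA, 48 and 19 in Sting-/- DMSO, and 35 and 27 in Sting-/- DMXAA libraries. Its count was thus not lower in the libraries labelled Sting-/-, which are called KO-labelled from here on. Which part of the gene the allele removes is not given, so whole-gene counts do not check it. The 10 beta cell markers summed to between 163120 and 323570 CPM per library. All 16 macrophage markers were detected in all 8 libraries.

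The promoters are shown first because NF-kB dimers bind a short DNA element, the kappaB site, and because the members differ in whether one stands near their start. RefSeq promoter windows of 300 bases (250 before the start to 50 after it, build GRCm38.p6) were matched by symbol for 7 of the 10 members, all but Nfkb1, Relb and Nfkbiz. The kappaB consensus, searched on both strands, was found in 7 of their 10 windows, which belong to 5 members, against 8.46% of all 32851 windows. Of these windows, 3 are of Nfkb2. Its windows 2 and 3 overlap, and the only match of window 3 is also counted in window 2. The 8.46% is a share of windows, and the share of genes was not computed. The core of the interferon response element (GAAA, any 2 bases, GAAA), also searched on both strands, was found in 0 of the 10, against 3.44% of all windows. The windows of Nfkbia, Tnfaip3 and Rela are printed 5′ to 3′ on the gene's strand, with kappaB matches in capitals. Nfkbia and Tnfaip3 were the members called with DMXAA in WT islets (called here means a Benjamini-Hochberg adjusted p under 0.05), and Rela is shown as the main activating subunit, which like Nfkbib has no match.
Nfkbia, chr12:55492598-55492897, minus strand: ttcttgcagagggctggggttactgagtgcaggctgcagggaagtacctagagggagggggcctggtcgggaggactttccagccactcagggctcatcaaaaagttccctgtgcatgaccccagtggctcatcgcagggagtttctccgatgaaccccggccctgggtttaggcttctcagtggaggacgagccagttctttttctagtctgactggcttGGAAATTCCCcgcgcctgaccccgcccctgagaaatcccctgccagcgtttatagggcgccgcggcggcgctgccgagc
Tnfaip3, outer start, chr10:19015361-19015660, minus strand: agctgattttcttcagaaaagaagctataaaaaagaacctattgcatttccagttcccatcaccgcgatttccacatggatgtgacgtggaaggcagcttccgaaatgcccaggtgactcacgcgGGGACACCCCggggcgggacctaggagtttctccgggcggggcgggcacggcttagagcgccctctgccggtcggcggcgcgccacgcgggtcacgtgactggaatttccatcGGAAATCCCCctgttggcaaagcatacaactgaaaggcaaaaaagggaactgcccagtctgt
Rela, chr19:5637291-5637590, plus strand: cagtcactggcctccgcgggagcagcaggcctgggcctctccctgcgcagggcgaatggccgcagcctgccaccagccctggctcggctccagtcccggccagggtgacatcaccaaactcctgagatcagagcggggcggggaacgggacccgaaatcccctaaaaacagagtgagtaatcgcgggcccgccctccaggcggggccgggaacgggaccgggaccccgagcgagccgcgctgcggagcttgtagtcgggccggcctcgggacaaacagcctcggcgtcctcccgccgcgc

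The Nfkbia match, GGAAATTCCC, begins at position -29 from the start. The outer Tnfaip3 start has matches at positions -125 (GGGACACCCC) and -12 (GGAAATCCCC). Its inner start has none. Nfkb2, Rel and Nfkbie also carry matches, and none of these genes was called in any of the 5 comparisons. Among the 5 members with a match, 2 were thus called and 3 were not. These are matches of letters, and binding was not measured.

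Nfkbia encodes IkB-alpha, the inhibitor that is destroyed and remade in each round of NF-kB activity (ENSMUSG00000021025, mm10 chromosome 12, 55489410 to 55492647, minus strand). Its level in CPM, a count scaled for library size, was 47.3 and 50.7 in WT DMSO libraries and 164 and 137 in WT DMXAA libraries. KO-labelled libraries had 83.3 and 84.6 CPM without DMXAA and 76.8 and 73.4 CPM with it. Both WT DMXAA libraries stood above all 6 others, and both WT DMSO libraries stood below all others. With DMXAA, Nfkbia rose 3.07-fold in WT islets (log2 fold change 1.62, SE 0.15, 95% interval 1.30 to 1.94). The adjusted p was 2.474e-05 by edgeR's quasi-likelihood test with Benjamini-Hochberg adjustment over the 17055 genes tested.

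Tnfaip3 encodes a ubiquitin-editing enzyme that shuts off signalling upstream of the IkB kinases (ENSMUSG00000019850, chromosome 10, 19000910 to 19015657, minus strand). Its level was 15.3 and 14.4 CPM in WT DMSO and 76.9 and 63.3 CPM in WT DMXAA libraries. It was 19.1 and 21.5 CPM in KO-labelled DMSO and 16.8 and 12.7 CPM in KO-labelled DMXAA libraries. The WT DMXAA pair stood far above all 6 other libraries, which lay within a narrow range. Tnfaip3 rose 4.72-fold with DMXAA in WT islets (log2 fold change 2.24, SE 0.18, 95% interval 1.84 to 2.63, edgeR adjusted p = 8.879e-06). This was the larger of the 2 changes that passed the threshold among the members.

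**Figure D1:**
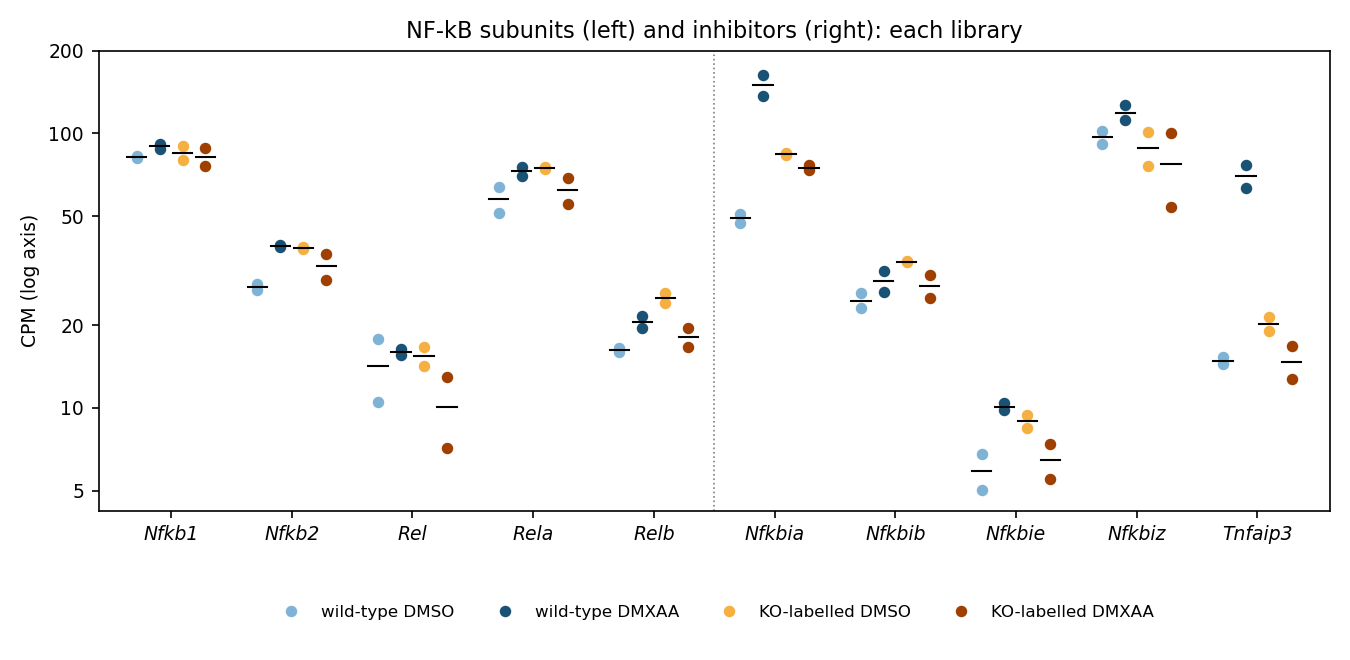
Level of each of the 10 members in CPM, 1 point per library, in the 4 groups of 2 libraries. Nfkbia and Tnfaip3 are highest in the WT DMXAA libraries (Nfkbia 164 and 137 CPM), while the other members differ less between groups.

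The remaining inhibitors did not pass the threshold. Nfkbie encodes IkB-epsilon, a further cytoplasmic inhibitor (ENSMUSG00000023947, chromosome 17, 45555703 to 45563169, plus strand). It had 6.79 and 5.02 CPM in WT DMSO, 9.80 and 10.4 in WT DMXAA, 8.47 and 9.46 in KO-labelled DMSO, and 7.41 and 5.501 in KO-labelled DMXAA libraries. The WT groups did not overlap, and the log2 difference was 0.78 (SE 0.24, 95% interval 0.25 to 1.30, edgeR adjusted p = 0.235). Nfkbib encodes IkB-beta (ENSMUSG00000030595, chromosome 7, 28758251 to 28767512, minus strand) and had 26.2 and 23.0 CPM without DMXAA and 31.4 and 26.5 CPM with it in WT libraries. KO-labelled libraries had 34.0 and 34.1 CPM without DMXAA and 25.2 and 30.5 CPM with it, and the WT log2 difference was 0.24 (edgeR adjusted p = 0.587). Its exons share 42 bases with Sirt2 and 314 bases with Ccer2 on the opposite strand. Ccer2 had at most 3 counts, whereas Sirt2 had 911 to 1583, and reads in the shared bases cannot be assigned without the strand setting of the counting.

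Nfkbiz encodes a nuclear member of the IkB family that acts as a cofactor at selected NF-kB targets (ENSMUSG00000035356, chromosome 16, 55811375 to 55838899, minus strand). It had 102 and 91.5 CPM in WT DMSO, 112 and 126 in WT DMXAA, 101 and 75.9 in KO-labelled DMSO, and 101 and 54.0 in KO-labelled DMXAA libraries. KO-labelled DMXAA replicate 2 was the lowest, well below its partner. The WT log2 difference was 0.30 (SE 0.25, edgeR adjusted p = 0.643).

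None of the 5 subunits passed the threshold in WT islets. Rela encodes the main activating subunit of the canonical pathway (ENSMUSG00000024927, chromosome 19, 5637483 to 5648130, plus strand). It had 51.4 and 64.0 CPM in WT DMSO, 70.1 and 75.7 in WT DMXAA, 75.7 and 73.9 in KO-labelled DMSO, and 68.9 and 55.4 in KO-labelled DMXAA libraries. The WT groups were apart, and they differed by 0.34 on the log2 scale (SE 0.16, 95% interval -0.01 to 0.68, edgeR adjusted p = 0.434). Nfkb1 encodes the precursor of Rela's usual partner (ENSMUSG00000028163, chromosome 3, 135584655 to 135691547, minus strand). Its group means lay between 81.9 and 89.9 CPM, with 82.6 and 81.2 CPM in WT DMSO, 88.1 and 91.7 in WT DMXAA, 90.0 and 79.9 in KO-labelled DMSO, and 88.7 and 75.8 in KO-labelled DMXAA libraries. Its WT log2 difference was 0.13 (95% interval -0.18 to 0.44, edgeR adjusted p = 0.728).

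Rel encodes c-Rel, the subunit best known from lymphocytes (ENSMUSG00000020275, chromosome 11, 23736847 to 23770970, minus strand). It had 17.8 and 10.5 CPM in WT DMSO and 16.4 and 15.6 CPM in WT DMXAA libraries, and these groups overlapped. KO-labelled libraries had 16.7 and 14.2 CPM without DMXAA and 13.0 and 7.14 CPM with it. The WT log2 difference was 0.18 (SE 0.28, edgeR adjusted p = 0.827).

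Nfkb2 and Relb encode the pair that carries the noncanonical pathway, in which the Nfkb2 precursor is itself processed. Nfkb2 (ENSMUSG00000025225, chromosome 19, 46304320 to 46312385, plus strand) had 26.8 and 28.3 CPM in WT DMSO and 39.1 and 38.4 CPM in WT DMXAA libraries. Its KO-labelled levels were 38.7 and 37.99 CPM without DMXAA and 36.5 and 29.2 CPM with it. The WT DMSO libraries were the lowest pair, and the WT log2 difference was 0.49 (SE 0.16, 95% interval 0.15 to 0.83, edgeR adjusted p = 0.250). Nfkb2 shares 299 exonic bases with Psd on the opposite strand, which had 997 to 1735 counts, and these reads too cannot be told apart. Relb (ENSMUSG00000002983, chromosome 7, 19606217 to 19629438, minus strand) had 16.6 and 15.9 CPM in WT DMSO, 21.6 and 19.6 in WT DMXAA, 26.2 and 24.1 in KO-labelled DMSO, and 19.5 and 16.7 in KO-labelled DMXAA libraries. Here the KO-labelled DMSO pair was the highest, and the WT log2 difference was 0.34 (SE 0.17, edgeR adjusted p = 0.446).

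Across the 10 members in WT islets, 2 were called higher by edgeR, against 1.11% of all genes tested. At an unadjusted p below 0.05, 4 were higher, namely Nfkbia, Tnfaip3, Nfkbie and Nfkb2, against 5.73% of all genes. The DMXAA libraries lay wholly above the DMSO libraries for 9 members, all but Rel, against 22.5% of all genes. The median log2 difference was 0.34 over the 10 members, 0.34 over the subunits and 0.78 over the inhibitors, while the median of all genes was near 0. Macrophage markers, which could carry these genes, summed to 145.5 and 99.3 CPM in WT DMSO and 95.02 and 93.2 CPM in WT DMXAA libraries, and 0 of the 16 were called. Endothelial markers summed to 962 and 1220 CPM without DMXAA and 770 and 791 CPM with it, with 3 of 16 called lower. Lymphocyte markers went from 26.2 and 3.64 to 3.12 and 5.67 CPM and acinar markers from 7139 and 1444 to 1625 and 3081 CPM, with 0 called in either list. None of the endothelial or macrophage markers was at 0 in any library. In bulk islets, fewer cells of a type and less RNA per cell cannot be told apart.

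In KO-labelled islets no member passed the threshold with DMXAA. The count was 0 of 10 by edgeR, by DESeq2 and by limma-voom. Of all genes, edgeR called 0.211% lower, DESeq2 0.321% and limma-voom 0%. Nfkbia differed by a log2 value of -0.16 (SE 0.14, 95% interval -0.47 to 0.15, edgeR adjusted p = 0.917), an interval that lies below the WT one. Tnfaip3 differed by -0.46 (SE 0.19, 95% interval -0.86 to -0.06, edgeR adjusted p = 0.590). All 10 estimates were below 0, with a median of -0.28. Their size depended on the library: the median was -0.17 without KO-labelled DMXAA replicate 2 and -0.51 without replicate 1. Replicate 2 was the lower of this pair for all members but Nfkbib. The pair also differed the most of the 4 groups over all genes (chi-square per degree of freedom 53.81). Its beta cell markers summed to 181550 CPM in replicate 1 and 323570 CPM in replicate 2. The part of this difference in the member values was not tested. The DMXAA libraries lay wholly below the DMSO libraries for 8 members, all but Nfkb1 and Nfkbiz, against 17.7% of all genes. At an unadjusted p below 0.05, 2 members were lower, Relb (-0.47) and Tnfaip3, against 3.3% of all genes.

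Cell type markers moved along with this comparison. The 13 lymphocyte markers summed to 84.0 and 63.8 CPM in KO-labelled DMSO libraries and to 5.62 and 10.5 CPM in KO-labelled DMXAA libraries, and 3 of the 8 that could be tested were called lower. Ighm, the heavy chain of B cell antibody, had 704 and 483 counts with DMSO and 11 and 4 counts with DMXAA. Cd3e, a T cell marker, had 20 and 22 counts with DMSO and 0 and 2 counts with DMXAA. Cd3d and Cd2 were at 0 in both KO-labelled DMXAA libraries, and Nkg7 was at 0 in all 4 KO-labelled libraries. Rel, Relb and Nfkb2 are also expressed by lymphocytes, and the part of these cells in the lower member values was not tested. The 18 acinar markers together had 1685 and 2505 CPM without DMXAA and 436 and 378 CPM with it, with 0 of 16 tested called. Prss1 was at 0 in 3 and Rbpjl in 2 of these 4 libraries. Endothelial markers went the other way, from 905 and 824 CPM to 1501 and 1374 CPM, with 2 of 16 called higher.

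**Figure D2:**
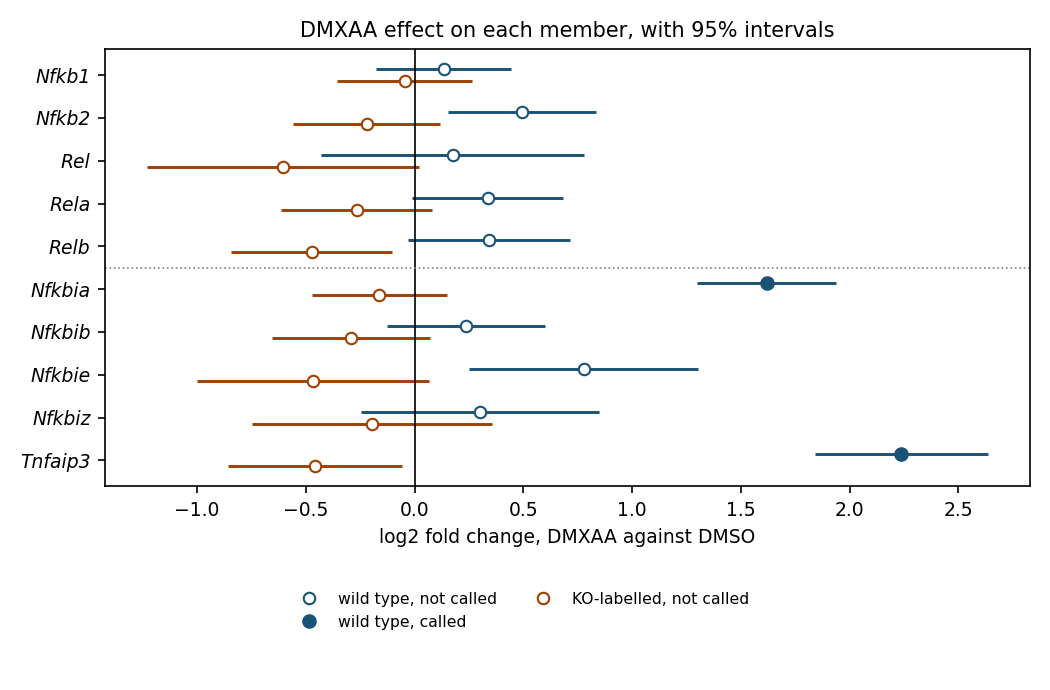
Log2 fold change of each member with DMXAA in WT and in KO-labelled islets, from edgeR, with 95% intervals. The intervals of Nfkbia (1.30 to 1.94 against -0.47 to 0.15) and Tnfaip3 (1.84 to 2.63 against -0.86 to -0.06) do not meet between the genotype labels, and all 10 estimates are above 0 in the first and below 0 in the second.

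The difference between these effects, KO-labelled minus WT, was tested directly as an interaction. Nfkbia differed by -1.78 on the log2 scale (SE 0.21, edgeR adjusted p = 0.0005257) and Tnfaip3 by -2.70 (SE 0.26, edgeR adjusted p = 0.0001317). These 2 of 10 members were called lower, against 0.528% of all genes. The estimate was below 0 for all 10 members, with a median of -0.75. At an unadjusted p below 0.05, 7 of 10 were lower, against 4.04% of all genes. These were Nfkbia, Tnfaip3, Nfkbie (-1.25, adjusted p = 0.160 by edgeR), Relb (-0.82), Nfkb2 (-0.71), Rela (-0.60) and Nfkbib (-0.53). For the last 5 the estimate joined a positive WT difference and a negative KO-labelled one, neither of which was called. Among the markers, 7 of 16 endothelial genes were called higher in the same interaction. The lymphocyte and acinar lists had median log2 values of -2.49 and -1.93, the sign of the members. The macrophage and fibroblast lists had 0.59 and 1.97, the other sign. None was called in the lymphocyte, acinar, macrophage or fibroblast list. The part of these cells in the member values was not tested. Both calls remained with the acinar marker level as a covariate (Nfkbia -1.90, Tnfaip3 -2.68). That level was lowest in the KO-labelled DMXAA pair, while the other groups overlapped, so this fit cannot separate it from the KO-labelled DMXAA group.

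The genotype labels were then compared within each treatment. With DMSO alone, 0 of 10 members were called by edgeR or limma-voom and 1, Nfkbia, by DESeq2, against 0.182% of all genes called higher by edgeR, 0.66% by DESeq2 and 0.0997% by limma-voom. At an unadjusted p below 0.05, 7 members were higher in KO-labelled islets, against 6.85% of all genes. These 7 were Nfkbia (log2 difference 0.78, SE 0.15, edgeR adjusted p = 0.0531), Relb (0.63), Nfkbie (0.61), Nfkb2 (0.48), Nfkbib (0.47), Tnfaip3 (0.45) and Rela (0.37). For the same 7 members the libraries of the groups did not overlap, against 24.3% of all genes. Nfkb1 (0.05), Rel (0.13) and Nfkbiz (-0.13) overlapped, and the median over the 10 members was 0.46. This comparison shares the WT DMSO libraries with the WT treatment comparison, and for Nfkb2, Nfkbia and Relb they were the lowest of the 8. For Relb the margin was small (16.6 CPM in WT DMSO replicate 1 against 16.7 in KO-labelled DMXAA replicate 2). With DESeq2 the adjusted p of Nfkbia was 0.00109, and over 19 alternative fits it ran from 0.00109 to 0.624, with 5 calls. Lymphocyte markers were higher in the same comparison, with sums of 26.2 and 3.64 CPM in WT DMSO against 84.0 and 63.8 CPM in KO-labelled DMSO libraries and 2 of 8 called. Of the 13 listed, Cd3d was at 0 in WT DMSO replicate 1, and Ms4a1, Cd3e, Cd3g, Trac and Nkg7 were at 0 in replicate 2. The part of these cells in the member values was not tested. Macrophage marker sums were 137.3 and 135.2 CPM in the KO-labelled DMSO libraries, beside the WT range of 99.3 to 145.5 CPM.

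With DMXAA, Nfkbia was lower in KO-labelled than in WT islets, with a log2 value of -1.003 (SE 0.14, edgeR adjusted p = 0.001263) and Tnfaip3 by -2.25 (SE 0.18, edgeR adjusted p = 9.342e-06). These 2 of 10 calls stand against 1.37% of all genes called lower. All 10 estimates were below 0, with a median of -0.43 beside 0.04 for all genes. At an unadjusted p below 0.05, 5 members were lower, the others being Rel (-0.65), Nfkbie (-0.64) and Nfkbiz (-0.62), against 7.17% of all genes. The groups did not overlap for 8 members, all but Nfkb1 and Nfkbib, against 21% of all genes. Without KO-labelled DMXAA replicate 1, Nfkbiz was also called (log2 difference -1.14, edgeR adjusted p = 0.00892, with a range of 0.00892 to 0.743 over 19 alternatives). Macrophage markers summed to 117.8 and 209.4 CPM in KO-labelled DMXAA libraries against 95.02 and 93.2 CPM in WT ones, with 2 of 16 called higher. Endothelial markers were also higher, with 9 of 16 called. Acinar markers were at 1625 and 3081 CPM in WT and 436 and 378 CPM in KO-labelled DMXAA libraries, a median log2 value of -2.82 with 0 of 16 called. With the acinar marker level as a covariate, Nfkbia was -1.17 (edgeR adjusted p = 0.0295) and Tnfaip3 -2.22 (edgeR adjusted p = 0.00318). These adjusted p-values reached at most 0.0423 and 0.00318 over the 19 alternatives. Since only the KO-labelled DMXAA pair was set apart by its acinar level, that fit cannot separate the level from this group. The part of these cell types was not tested. This comparison and the WT treatment comparison share the WT DMXAA libraries, so their values are not independent.

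**Figure D3:**
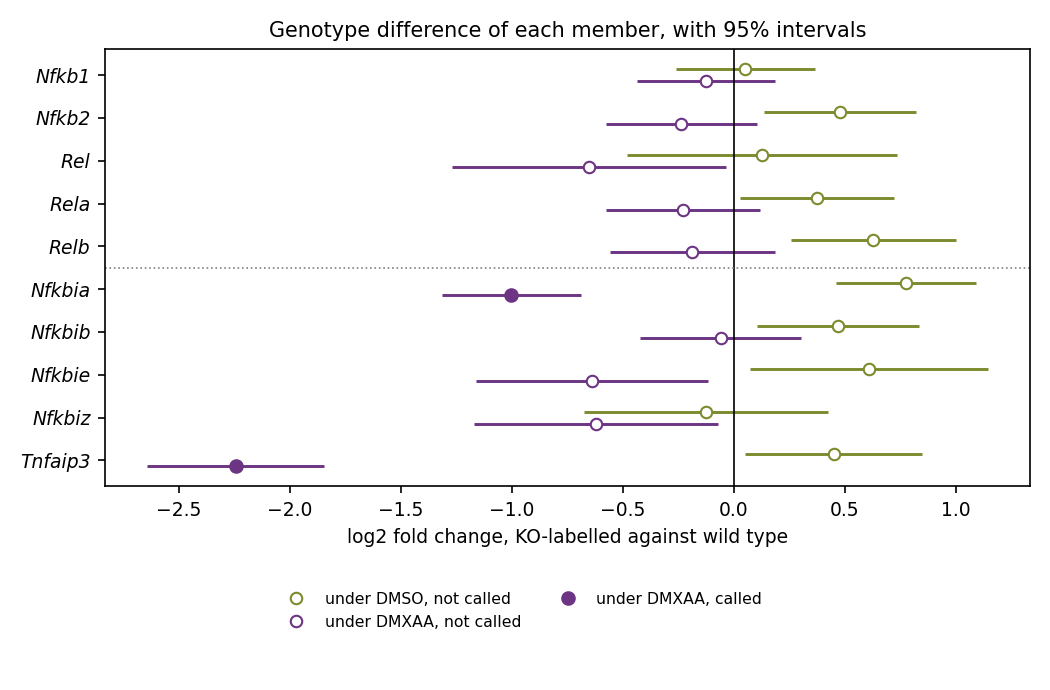
Log2 difference of each member between KO-labelled and WT islets under DMSO and under DMXAA, from edgeR, with 95% intervals. Under DMSO 9 of 10 estimates are above 0 and none is called, and under DMXAA all 10 are below 0, with Nfkbia (-1.003) and Tnfaip3 (-2.25) called.

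The CPM of the 5 subunits and of the 5 genes listed as inhibitors were summed. The inhibitor sum includes Nfkbiz, the nuclear cofactor, at 102 and 91.5 CPM in WT DMSO libraries. The sums are thus not a measure of inhibitory capacity. In WT DMSO libraries the 5 subunits summed to 195.1 and 199.98 CPM and the 5 inhibitors to 197.6 and 184.7 CPM. With DMXAA the WT subunit sums were 235.3 and 240.9 CPM and the inhibitor sums 393.7 and 363.8 CPM. By CPM, the inhibitor sum therefore clearly exceeded the subunit sum in these libraries only. KO-labelled DMSO libraries had subunit sums of 247.2 and 230.1 CPM and inhibitor sums of 246.2 and 225.6 CPM. KO-labelled DMXAA libraries had 226.5 and 184.2 CPM of subunits and 226.8 and 176.0 CPM of inhibitors. Nfkbia made up 24.0% and 27.5% of the inhibitor sum in WT DMSO, 41.6% and 37.7% in WT DMXAA, 33.8% and 37.5% in KO-labelled DMSO, and 33.9% and 41.7% in KO-labelled DMXAA libraries. Its share was thus lowest in the WT DMSO pair, and it was 33.8% to 41.7% in the other 6 libraries. CPM sums are not corrected for transcript length, so they weigh long transcripts more. Per kilobase of exon, Nfkbia had a mean of 30.5 CPM in WT DMSO libraries, against 18.8 for Rela, the highest subunit. The near-equal CPM sums of the other groups therefore need not mean equal numbers of transcripts.

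**Figure D4:**
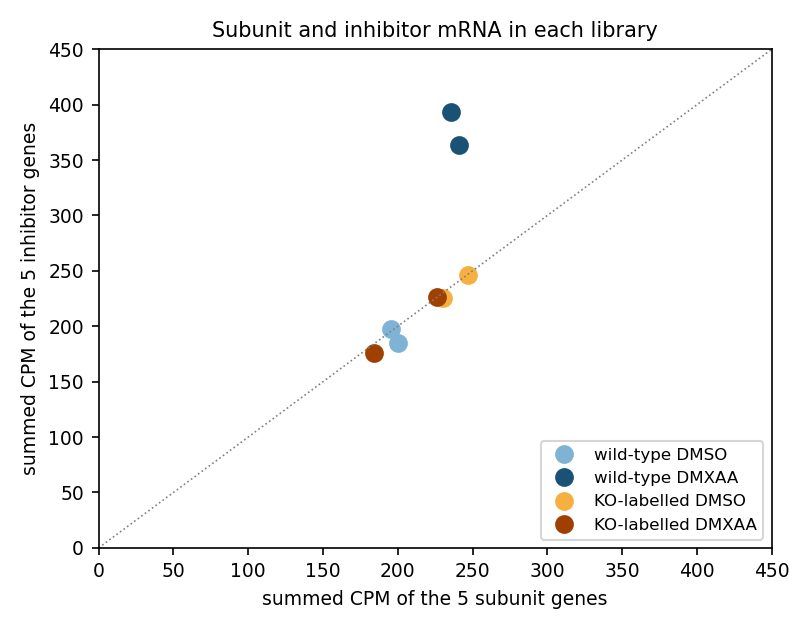
Summed CPM of the 5 subunits and of the 5 inhibitors, 1 point per library, in the 4 groups. The inhibitor sum of the WT DMXAA libraries (393.7 and 363.8 CPM) stands above that of every other library, while the subunit sums lie between 184.2 and 247.2 CPM.

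Per kilobase of exon, Nfkbia was the most abundant member in every group. In WT DMSO islets it had 30.5 ± 1.49 CPM per kb (SD, n = 2). It was followed by Nfkbiz (19.3 ± 1.47 CPM per kb) and Rela (18.8 ± 2.90 CPM per kb), whose libraries overlapped. Next came Nfkbib at 11.3 ± 1.03, Nfkb1 at 6.79 ± 0.08, Nfkb2 at 6.01 ± 0.23 and Relb at 4.18 ± 0.11 CPM per kb, with no overlap between neighbours. Tnfaip3 (2.06 ± 0.09), Nfkbie (1.94 ± 0.41) and Rel (1.90 ± 0.69 CPM per kb) were lowest and overlapped. With DMXAA in WT islets, Nfkbia reached 93.5 ± 11.7 CPM per kb, and Tnfaip3 moved from rank 8 to rank 5, at 9.70 ± 1.33 CPM per kb. In KO-labelled islets Tnfaip3 was at rank 9 with either treatment (rank 8 per kb of its longest coding transcript), at 2.80 ± 0.23 CPM per kb with DMSO and 2.04 ± 0.40 CPM per kb with DMXAA. The place of Nfkb1 also depended on the length used, since its WT DMSO level was 19.9 CPM per kb of its longest coding transcript, above Nfkbib at 11.9. By that length Relb (7.36 CPM per kb) stood above Nfkb2 (7.16), the reverse of their order per kb of exon.

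Genes around the members were taken from lists of the same pathway. Of 15 tested further inhibitors, 1 was called higher with DMXAA in WT islets, against 1.11% of all genes. This was Tnip1, a ubiquitin-binding partner of the Tnfaip3 protein. Tnip1 had 28.1 and 25.0 CPM in WT DMSO and 47.6 and 43.4 CPM in WT DMXAA libraries, a log2 rise of 0.78 (SE 0.15, edgeR adjusted p = 0.0175). It lost the call without WT DMXAA replicate 1 (adjusted p = 0.250 by edgeR) or replicate 2 (adjusted p = 0.104). In KO-labelled libraries it had 34.1 and 36.7 CPM without DMXAA and 32.5 and 35.4 CPM with it. The list's median log2 difference was 0.05 in WT and -0.04 in KO-labelled islets.

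Of 26 kinases and adaptors that carry the signal to the IkB proteins, edgeR called 0 in each of the 5 comparisons. Among all 17055 genes tested, those called in either direction numbered 253, 64, 204, 38 and 407 in the order of the report. The 0 of 26 is thus near the share of all genes. In WT islets 2 were higher and 4 lower at an unadjusted p below 0.05, beside 5.73% and 6.14% of all genes. There DESeq2 called 1 higher and limma-voom 0, against 1.13% and 1.09% of all genes, and the median was -0.05. In KO-labelled islets the median of this list was -0.12, with 22 of 26 estimates below 0, beside a median of -0.0006 for all genes. For 10 of them the DMXAA libraries lay wholly below the DMSO libraries, against 17.7% of all genes. Of 10 TNF and interleukin-1 family receptors 0 were called in WT islets by edgeR, where 1.11% of all genes were called higher. At an unadjusted p below 0.05, 1 was higher and 2 were lower, beside 5.73% and 6.14% of all genes. In KO-labelled islets 1 receptor was called lower by edgeR and 0 by DESeq2 and limma-voom, against 0.211%, 0.321% and 0% of all genes. This was Tnfrsf13c, the B cell receptor for the survival factor BAFF. It had 31 and 33 counts with DMSO and 1 and 6 counts with DMXAA (log2 fold change -3.35, edgeR adjusted p = 0.0451), beside the lymphocyte markers above. Of the 8 fits that each left out 1 library, those without WT DMSO replicate 1 or 2 kept the call and the other 6 lost it, with edgeR adjusted p from 0.0287 to 0.406.

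The target genes held the most calls of the pathway lists. The lists were chosen with earlier results of these data known, so this ranking is a description. Of 24 tested targets outside the 10 members, edgeR called 8 higher with DMXAA in WT islets, DESeq2 11 and limma-voom 8, against 1.11%, 1.13% and 1.09% of all genes. The median log2 difference was 1.04. Leaving out single libraries gave 5 to 10 calls by edgeR, with 5 without WT DMSO replicate 1 or WT DMXAA replicate 2. Of the 8 genes, Irf1, Cxcl1, Ccl2 and Cxcl2 kept the call in all 8 such fits, and Tnf, Ccl5, Icam1 and Csf1 lost it in at least 2. In KO-labelled islets edgeR called 0, with 1 higher and 4 lower at an unadjusted p below 0.05 (4% and 3.3% of all genes), DESeq2 called 1 lower and limma-voom 0, and the median was -0.17. In the interaction edgeR called 6 lower, with a median of -1.16, and 4 without KO-labelled DMSO replicate 2 or without KO-labelled DMXAA replicate 2. Of all genes, edgeR called 0.528% lower in the interaction. Irf1, a transcription factor of the interferon response, had 38.6 and 50.9 CPM in WT DMSO, 165 and 145 in WT DMXAA, 89.3 and 86.0 in KO-labelled DMSO, and 65.7 and 67.8 in KO-labelled DMXAA libraries. Its order of groups was that of Nfkbia, with WT DMSO lowest and WT DMXAA highest. It rose by 1.79 on the log2 scale in WT islets (SE 0.16, edgeR adjusted p = 2.474e-05), and the interaction was -2.19.

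The chemokines Cxcl1, Cxcl2 and Ccl2, which attract neutrophils and monocytes, completed the 4 targets with the smallest p. Cxcl1 had 5.15 and 4.48 CPM in WT DMSO and 37.4 and 41.5 CPM in WT DMXAA libraries (log2 rise 3.03), and 4.02 to 6.34 CPM in the KO-labelled libraries. Ccl2 went from 3.31 and 2.46 to 32.7 and 65.3 CPM (log2 rise 4.09) and lay between 3.34 and 4.5997 CPM in KO-labelled libraries. Cxcl2 went from 0.736 and 1.82 to 19.0 and 12.4 CPM (log2 rise 3.60) and lay between 2.69 and 4.59 CPM in KO-labelled libraries. All 3 were also called in the interaction, at -2.81 for Cxcl1, -3.80 for Ccl2 and -3.90 for Cxcl2. Between the genotype labels under DMXAA, edgeR called 7 of 24 tested targets lower, against 1.37% of all genes. These were Tnf, Cxcl1, Cxcl2, Ccl2, Vcam1, Sele and Irf1, and the list's median was -0.985. There limma-voom called 7 lower and DESeq2 9. That comparison shares the WT DMXAA libraries with the WT treatment comparison. Between the genotype labels under DMSO, 2 targets were called higher by edgeR and by limma-voom and 6 by DESeq2. Of all genes, edgeR called 0.182% higher, limma-voom 0.0997% and DESeq2 0.66%. The edgeR calls were Gadd45b, a stress-response gene (log2 difference 1.08, edgeR adjusted p = 0.00984), and Irf1 (0.97, edgeR adjusted p = 0.0289). Both lost the call without either KO-labelled DMSO library, and Irf1 also without WT DMSO replicate 1. Over the fits that left out 1 library, 0 to 5 targets were called higher, with 0 without either KO-labelled DMSO library and 5 without WT DMSO replicate 2.

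**Figure D5:**
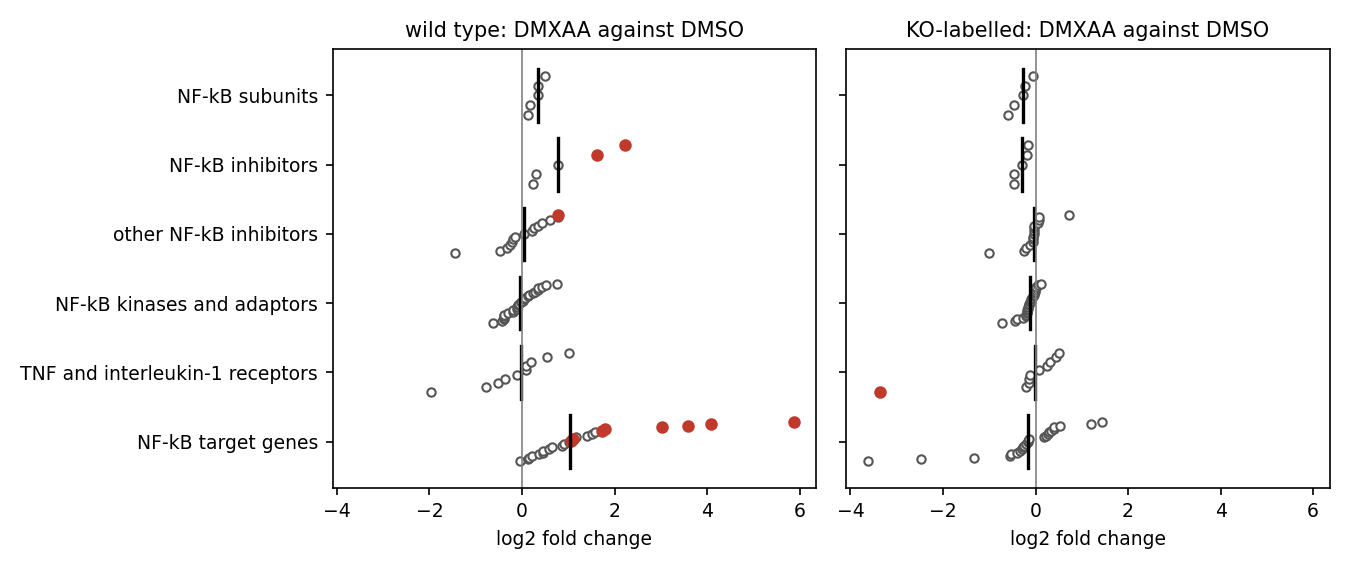
Log2 fold change with DMXAA of every tested gene of the pathway lists, in WT and KO-labelled islets, with list medians. The target list has a median of 1.04 in WT and -0.17 in KO-labelled islets. The kinase list has medians of -0.05 and -0.12, and the receptor list -0.02 and -0.01.

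Among 12787 genes with a mean of at least 1 CPM, those whose levels over the 8 libraries were most like Nfkbia were Irf1 (Pearson r = 0.99), Cxcl2 (0.98), Tnip1 (0.96) and Themis2 (0.95). For Tnfaip3 they were Neurl3 (0.99), Ccl4 (0.98), Gbp5 (0.98) and Tbx2 (0.98). Likeness was taken on log2(CPM + 1), over 8 libraries that share 4 groups, and is a description. The 2 sets of 4 held no gene in common.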

How the data were processed

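Poly(A) RNA from islets was sequenced (paired ends, Illumina HiSeq), per the labels' protocols. The authors deposited raw counts per Ensembl gene, 1 file per library. The submitters' processing notes name HISAT2, HTSeq and mm10. Versions, annotation and strand setting: not given in the sources used here. Symbols, exons and coordinates came from GENCODE M21 (mm10), which held 54409 of the 54532 identifiers.

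Libraries were grouped by labelled genotype and treatment. The 2 libraries of a group differed beyond sampling noise (chi-square per degree of freedom 6.835 to 53.81). filterByExpr by group kept 17055 genes, including all 10 members. Counts were scaled by TMM and fitted with edgeR 4.0.16 (R 4.3.3, limma 3.58.1, DESeq2 1.42.0), with 1 coefficient per group over 8 libraries and 4 residual degrees of freedom. The quasi-likelihood F-test was used with Benjamini-Hochberg adjustment over all genes tested, and an adjusted p under 0.05 was called. The SE was taken as log2 fold change over root F. The common biological coefficient of variation was 17.1%. An exact permutation test of 2 against 2 libraries cannot go below a two-sided p of 0.333, so none was used. The fit was also tested on simulated data. CPM uses the TMM-scaled library sizes.

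The members and gene lists were chosen with earlier results of these data known. All 10 members are named, called or not. From each pathway list, genes called in a comparison are named, with values for up to 4 with the smallest p. For each member called in wild-type islets, the 4 genes most like it over the libraries are named. Marker genes were given as sums over their lists, and single ones named with them were picked after their values were seen. Replicate numbers were not taken as pairs of libraries, and the block by number was an alternative. Others were the low-count filter, scaling, test, acinar content and leaving out each library.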

Additional observations from a re-analysis of the deposited data

Results flagged for a closer look

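The effect of DMXAA differed between the genotype labels for 2 members, by a direct test of the difference. The DMXAA effect on Nfkbia in KO-labelled islets minus that in WT islets was -1.78 on the log2 scale (edgeR adjusted p = 0.0005257), with effects of -0.16 and 1.62. For Tnfaip3 it was -2.695 (edgeR adjusted p = 0.0001317), with effects of -0.46 and 2.24. Both KO-labelled DMXAA libraries lay below both KO-labelled DMSO libraries in each gene, and both WT DMXAA libraries lay above their DMSO libraries. The Sting1 count was not lower under the knockout label, so the direction rests on the labels.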

How the results depend on the processing

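Nfkbia and Tnfaip3 were called in WT islets and between genotype labels under DMXAA in all 19 alternatives, and in the interaction in all 18. The log2 change in WT islets ran from 1.49 to 1.74 for Nfkbia and from 2.09 to 2.37 for Tnfaip3. No member was called with DMXAA in KO-labelled islets in any alternative. Between the labels under DMSO the number of members called went from 0 to 1 (Nfkbia) with no low-count filter and with DESeq2. It ran from 0 to 1 when single libraries were left out, with 1 call without WT DMSO replicate 2 or without either KO-labelled DMXAA library. The cause was not tested. Of 940 member values under alternatives, 13 changed sign, all of them uncalled. Leaving out single libraries, Rel in WT islets ran from -0.155 (without WT DMSO replicate 2) to 0.614. With DMXAA in KO-labelled islets, Nfkb1 ran from -0.159 to 0.0823 and Nfkbiz from -0.709 to 0.205, both above 0 without KO-labelled DMSO replicate 1 (0.0432 and 0.0337) or KO-labelled DMXAA replicate 2. Between the labels under DMSO, Nfkb1 ran from -0.0497 (without KO-labelled DMSO replicate 1) to 0.117. Rel ran from -0.206 (without WT DMSO replicate 2) to 0.537, with -0.0060 without KO-labelled DMSO replicate 1, and Nfkbiz from -0.364 to 0.0494 (without KO-labelled DMSO replicate 2). Scaling by library size, which moved the median of all genes there to -0.14, gave -0.0901 for Nfkb1 and -0.0035 for Rel. Under DMXAA, Nfkbib ran from -0.209 to 0.0761 (without KO-labelled DMXAA replicate 1), with 0.0685 without WT DMXAA replicate 1. With the replicate block the numbers of members called were 2, 0, 2, 0 and 2 in the order of the report, the same as without it, and 2, 0 and 2 within genotype. Same-numbered libraries had correlations of deviations between -0.136 and 0.128 over group pairs, and the numbers are treated as names. With 2 libraries a group these correlations cannot exclude a pairing. Pairing the numbers crosswise between genotype labels gave 0 calls under DMSO and 2 under DMXAA, a setting chosen after seeing the data. The number of all genes called, in either direction and in the order of the report, was 253, 64, 204, 38 and 407, and over the alternatives it ran from 160 to 994, 0 to 177, 87 to 304, 3 to 240 and 174 to 674. With 2 libraries a group, leaving one out assumes that the lone library varies like the other groups.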
